A study of Mus musculus with 15 samples.

Results

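The Onecut genes *Onecut1*, *Onecut2* and *Onecut3* and the Zfhx genes *Zfhx2*, *Zfhx3* and *Zfhx4* encode homeodomain transcription factors, and they are 6 of the 23128 genes kept from RNA sequencing of mouse cerebral cortex and cultured cortical neurons with and without *Phf6*. They were chosen by readout: *Onecut2* and *Zfhx3* were higher in the *Phf6* deleted cortex and not in the *Phf6* deleted neurons, and the other genes of both families were added by name. The genotype differences of the members below are therefore descriptions of how the genes were chosen. Adjusted p-values from the fit of all genes are given as part of that description and not as support. The contrast between control neurons and control cortex was not used for the choice and was tested, although it rests on the same control libraries.

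All foetuses were male and on a C57BL/6 background. The E15.5 cortices were 3 *Phf6* +/Y controls and 5 *Phf6* -/Y samples carrying a germline deletion, from litters 1 to 3. The E16.5 cortical neurons, isolated and kept in culture overnight, were 3 *Phf6* +/Y NesCre T/+ controls and 4 *Phf6* lox/Y NesCre T/+ samples, from litters 4 to 7. NesCre expresses Cre recombinase in neural progenitors, the controls of the neurons carry it too, and the cortex samples do not. Each of litters 1 to 6 held 1 control, and litter 7 held 1 deleted culture and no control.

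ONECUT proteins bind DNA through a single cut domain together with a homeodomain. *Onecut1*, also called hepatocyte nuclear factor 6, is known for its part in liver and pancreas development, and the family also acts in the retina, in motor neurons and in other neurons outside the dorsal cortex. ZFHX proteins are among the largest transcription factors and carry many zinc fingers beside several homeodomains. *Zfhx3*, also called *Atbf1*, is known from neuronal differentiation and from the circadian clock of the hypothalamus, *Zfhx4* is its closest relative, and *Zfhx2* is expressed in the developing brain and in sensory neurons.

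RefSeq start site windows (GRCm38.p6, the 250 bases before an annotated start) were found for 3 of the 6 genes, *Zfhx3*, *Onecut1* and *Zfhx2*. They are shown as a description, and none was found for *Onecut2*. Their part in the levels of the members was not tested. The window of *Zfhx3*, chr8:108714394-108714643 on the plus strand, precedes a start that lies inside the annotated gene, and GENCODE annotates no exon in it. Its CG dinucleotides are in capitals.
Zfhx3: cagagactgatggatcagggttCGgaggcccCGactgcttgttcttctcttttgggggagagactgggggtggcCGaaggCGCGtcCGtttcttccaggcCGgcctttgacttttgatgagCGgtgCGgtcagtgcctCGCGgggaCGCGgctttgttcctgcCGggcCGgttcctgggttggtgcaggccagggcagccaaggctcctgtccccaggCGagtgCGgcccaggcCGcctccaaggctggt
The window held 18 CG dinucleotides and 66.0% G and C, against medians of 6 and 52.4% over all 32851 windows of 27025 genes. At least as many CG dinucleotides were found in 21.67% of all windows. The window of *Onecut1* held 31 at 71.6% G and C, and that of *Zfhx2* held 15 at 55.6%.

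The letters ATTGAT, the core of the DNA motif bound by ONECUT proteins, were searched on both strands. They occurred in 6.72% of all windows and at least 2 times in 0.609%. The windows of *Zfhx3* and *Onecut1* held 0 matches and that of *Zfhx2* held 2, which are shown as 30-base stretches on the minus strand, with the match, read directly or as its reverse complement, in capitals. The stretches lie at chr14:55092266-55092295 and chr14:55092210-55092239, and their matches start 235 and 179 bases before an annotated start of *Zfhx2*. This start also lies inside the annotated gene, and GENCODE annotates all 250 bases of this window as exon.
Zfhx2, farther from the start: tgcccagggtgaATCAATggaaacccactc
Zfhx2, nearer to the start: cagccaaatagcATTGATtattttctttca
A match of letters is a description and not a bound site.

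The libraries held 16858007 to 31157700 counted reads. Levels are CPM, read counts relative to a library size that was scaled by TMM over all 15 libraries. *Phf6* itself was at 149 to 191 CPM in control cortices and 42.4 to 55.2 in deleted ones, and at 228 to 259 CPM in control neurons and 59.9 to 85.8 in deleted ones, so every library matched its genotype label. All 6 neuron markers were present in every library, among them *Dcx*, a microtubule protein of young neurons, at 1288 CPM or more and *Snap25*, a synaptic protein, at 66.0 CPM or more.

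One library stood apart. The first *Phf6* -/Y cortex, from litter 3, had a summed level of 494.5 CPM over 12 markers of diencephalon and hypothalamus, against 35.1 to 66.8 CPM in the other 7 cortices, and each of the 12 genes was highest in it. *Tcf7l2*, a transcription factor of the thalamus, was at 268 CPM there and at 7.49 to 18.1 in the other cortices. The summed level of 11 dorsal cortical markers was 2024 CPM there and 3075 to 3457 in the other cortices. It was also the highest library for each of the 6 Onecut and Zfhx genes. The part of these other markers in the results was not tested, and the levels and fitted differences of the members in the cortex are therefore given with and without this library. In tissue samples of this kind, a change in the number of cells of a type and a change in RNA per cell cannot be told apart.

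**Figure D1:**
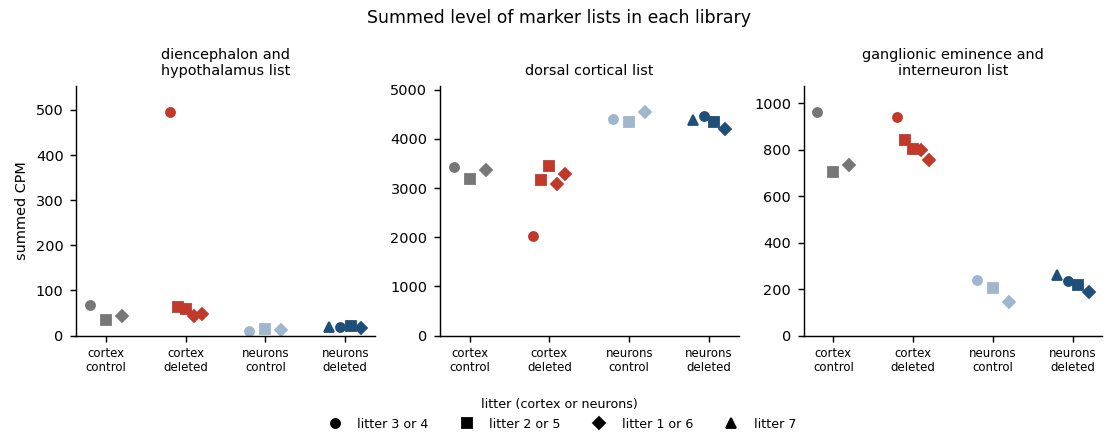
Summed CPM of 3 marker lists in each library, by group, with the marker shape giving the litter. The first deleted cortex sits at 494.5 CPM in the diencephalon and hypothalamus list and at 2024 CPM in the dorsal cortical list, apart from the other 7 cortices.

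*Onecut2* (Entrez 225631, chromosome 18 of GRCm38, 64340032 to 64398488) was the member with the clearest separation of the cortex groups. Control cortices were at 13.6, 7.17 and 9.71 CPM. Deleted cortices were at 36.5, 15.2, 14.1, 14.7 and 14.9 CPM. Every deleted cortex lay above every control, and this also held for the 4 deleted cortices without the first, which lay between 14.1 and 15.2 CPM. Of the 5 members tested in the cortex, *Onecut2* alone had groups that did not overlap, and 2.47% of all 14746 genes tested in the cortex were arranged in this direction. Within litters, the deleted sample was above its control by a log2 difference of 1.42 in litter 3, of 1.08 and 0.97 in litter 2 and of 0.60 and 0.62 in litter 1. The fitted log2 fold change was 0.98 (standard error 0.14) and fell to 0.81 (standard error 0.16) without the first deleted cortex.

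In the neurons the order of the *Onecut2* levels was the opposite. Control cultures were at 10.8, 7.98 and 10.2 CPM. Deleted cultures were at 6.21, 8.84, 6.49 and 8.27 CPM. The groups overlapped, and in litters 4, 5 and 6 the deleted culture was below its control by nearly the same amount, with log2 differences of -0.29, -0.30 and -0.31. The fit gave a log2 fold change of -0.30 (standard error 0.16).

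*Onecut3* (Entrez 246086, chromosome 10, 80494906 to 80517266), the least studied of the family, was expressed at a low level in the cortex. Control cortices were at 3.41, 0.753 and 0.484 CPM, from 109, 19 and 12 reads. Deleted cortices were at 9.41, 1.79, 2.12, 1.19 and 1.59 CPM, from 224, 50, 58, 35 and 38 reads. The control of litter 3 lay above 4 of the 5 deleted cortices, so the groups overlapped, whereas within each litter the deleted samples were above their control. The log2 differences within litters ranged from 1.25 to 1.72, and that of litter 3 was 1.46. In the fit the log2 fold change was 1.44 (standard error 0.28), and 1.43 (standard error 0.42) without the first deleted cortex. In the neurons every library held 6 reads or fewer and *Onecut3* was not tested.

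*Onecut1* (Entrez 15379, chromosome 9, 74861921 to 74889648) was near the limit of detection and did not pass the filter on low counts in either tissue. Control cortices held 9, 0 and 2 reads. Deleted cortices held 59, 10, 9, 8 and 8 reads. The first deleted cortex, at 2.48 CPM, was far above the other 4, which lay between 0.272 and 0.359 CPM. The neuron libraries held at most 2 reads each, and a difference was not detectable at this depth.

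*Zfhx3* (Entrez 11906, chromosome 8, 108279311 to 108961636) had the largest log2 difference between control tissues of the Zfhx genes. Control cortices were at 40.7, 27.5 and 25.6 CPM. Deleted cortices were at 90.5, 41.8, 44.2, 49.8 and 34.3 CPM. The lowest deleted cortex lay below the control of litter 3, so the groups overlapped, and each deleted cortex was above the control of its own litter. The log2 difference within litters was 1.15 in litter 3 and ranged from 0.43 to 0.96 in the other litters. Fitted over all litters, the log2 fold change was 0.81 (standard error 0.13), and 0.68 (standard error 0.14) without the first deleted cortex.

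In the neurons, the level of *Zfhx3* followed the litter. Both cultures of litter 4 and the culture of litter 7 were at 8.47, 7.70 and 6.95 CPM. Both cultures of litter 5 were at 1.25 and 0.828 CPM and both of litter 6 at 1.49 and 0.865 CPM, from 13 to 34 reads. The 3 cultures of litters 4 and 7 were therefore above the 4 cultures of litters 5 and 6, whatever the genotype. Within each litter the deleted culture was below its control, with log2 differences of -0.14, -0.59 and -0.79 in litters 4, 5 and 6. The fitted log2 fold change was -0.40 (standard error 0.27) with litter as a term and 0.13 (standard error 1.08) without it.

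The same litters differed in markers of the ganglionic eminences, the ventral source of cortical interneurons. The summed level of 13 such markers was 233 to 262 CPM in the 3 cultures of litters 4 and 7 and 144 to 218 CPM in the 4 cultures of litters 5 and 6. *Nkx2-1*, a transcription factor of the medial ganglionic eminence, was at 2.12 to 4.22 CPM in the former and at 0.351 to 0.891 in the latter. *Isl1*, which marks striatal and cholinergic precursors, was at 2.25 to 3.26 CPM in the former and at 0 to 0.969 in the latter. Both are low in the cultures, were picked from the 13 and do not stand for the list. Of its more abundant genes, *Lhx6* was at 51.4 to 77.1 CPM over all cultures and *Dlx1* at 14.1 to 49.6. The part of these markers in the litter difference of *Zfhx3* was not tested.

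*Zfhx4* (Entrez 80892, chromosome 3, 5218218 to 5415861) showed a smaller difference. Control cortices were at 65.8, 49.7 and 55.7 CPM. Deleted cortices were at 124.9, 64.4, 68.3, 67.7 and 63.1 CPM. The control of litter 3 lay within the range of the deleted samples, and each deleted cortex was above the control of its litter. The log2 difference was 0.93 in litter 3 and 0.18 to 0.46 in litters 1 and 2. In the fit the difference was 0.48 on the log2 scale (standard error 0.11), and 0.32 (standard error 0.09) without the first deleted cortex. Control neurons were at 32.0, 20.1 and 29.2 CPM and deleted neurons at 26.0, 31.5, 17.1 and 25.8 CPM. Here the groups overlapped over most of their range, and the log2 differences within litters were -0.02, -0.23 and -0.18.

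*Zfhx2* (Entrez 239102, chromosome 14, 55060268 to 55092381) was the most abundant member in every library. Control cortices were at 117.6, 102.7 and 74.3 CPM. Deleted cortices were at 195.7, 131.7, 106.5, 133.9 and 115.8 CPM. The groups overlapped, and the log2 differences within litters ranged from 0.05 to 0.85. In the fit the log2 fold change was 0.54 (standard error 0.12), and 0.47 (standard error 0.15) without the first deleted cortex. Control neurons were at 62.9, 61.8 and 82.1 CPM and deleted neurons at 63.5, 73.7, 81.5 and 79.5 CPM. *Zfhx2* was the only member with a positive fitted difference in the neurons, at 0.19 (standard error 0.08), and its deleted culture was above the control in litters 4 and 5 and not in litter 6. An antisense gene, *Zfhx2os*, overlaps it and is counted apart, at 3.44 to 8.64 CPM in the cortices. Whether the counting used strand is not given in the sources used here, so the reads of the pair cannot be told apart.

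**Figure D2:**
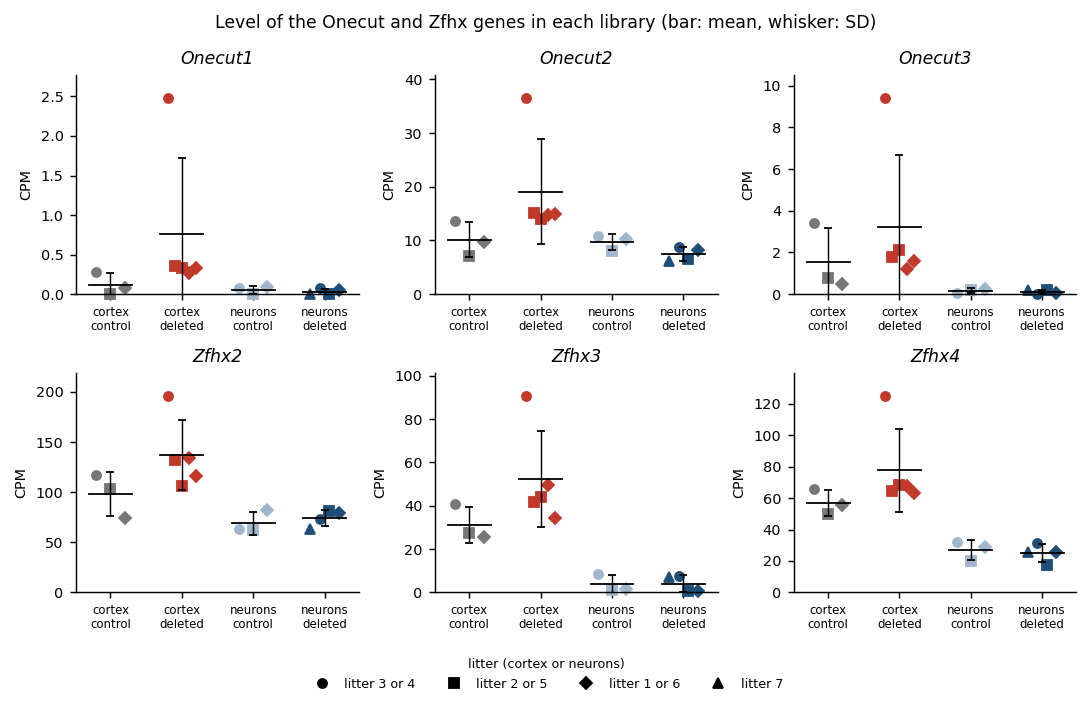
Level of each of the 6 genes in CPM, by group, with 1 point for each library, bars for the group mean and whiskers for the SD, cut at 0. The first deleted cortex (a circle, litter 3) is the highest point in every panel, and the 4 other deleted cortices lie above all controls for *Onecut2*, between 14.1 and 15.2 CPM, and among tested members for no other.

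Seen across the members, the cortex differences had 1 direction. All 5 members tested in the cortex were above the control of their own litter in all 5 deleted cortices, and in all 4 without the first. Of all genes tested, 8.19% were above their litter's control in every deleted cortex. In the neurons, 3 of the 4 members tested, *Onecut2*, *Zfhx3* and *Zfhx4*, were below the control in each of the 3 litters with a control, as were 15.7% of all genes tested. None of the 4 had every deleted culture below every control, an arrangement found for 3.63% of genes. Because *Onecut2* and *Zfhx3* were chosen on these contrasts, and the others as their relatives, no more is read from these counts.

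**Figure D3:**
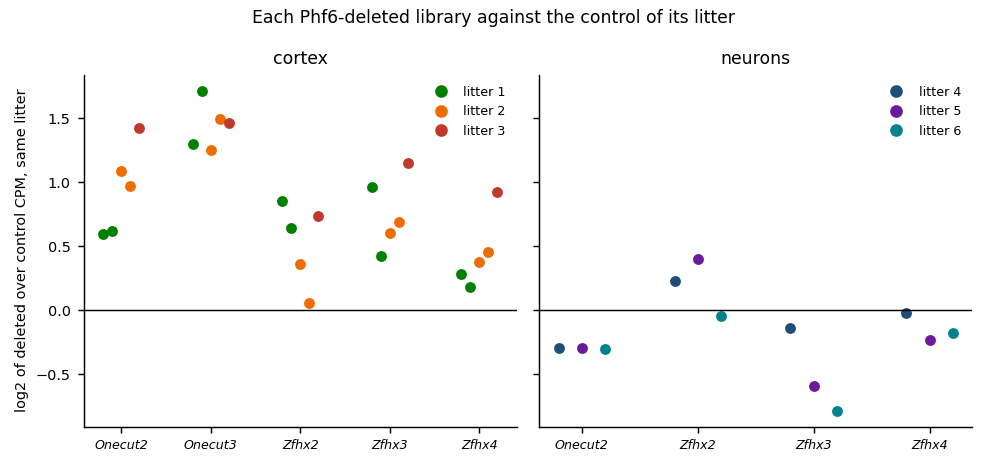
Log2 ratio of the CPM of each deleted library over the control of its litter, for genes with at least 10 reads in both libraries, in the cortex (left) and the neurons (right), coloured by litter. All 5 genes are above 0 in all deleted cortices, and *Onecut2*, *Zfhx3* and *Zfhx4* are below 0 in litters 4 to 6.

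*Onecut2* and *Zfhx3* were chosen for being higher in the deleted cortex. In the cortex fit by edgeR's quasi-likelihood test their adjusted p-values (FDR) were 0.0110 and 0.0368, ranks 10 and 31 by p among 14746 genes. At an FDR below 0.05, 0.319% of all genes were called higher in the deleted cortex and 0.387% in either direction. The members just inside and just outside this threshold were *Onecut3*, at 0.0408, and *Zfhx4*, at 0.0932, and *Zfhx2* was at 0.140. Thus 3 of the 5 tested members were called higher. Without the first deleted cortex, 0 of 5 were called by edgeR, and *Onecut2* was at an FDR of 0.0564 and *Zfhx3* at 0.0925. In that fit 15 of 14710 genes were called higher. All 5 members were higher at an unadjusted p below 0.05, as were 778 of these genes. Since *Onecut2* and *Zfhx3* were chosen on this contrast, and the others as their relatives, nothing is read from this count. In the neurons 0.273% of all genes were called, and 0 of the 4 tested members by edgeR, DESeq2 or limma-trend. *Zfhx2* was higher at an unadjusted p below 0.05 by edgeR, as were 815 of all 13905 genes.

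Leaving out single libraries changed the number of members called higher in the cortex. It was 0 without the control of litter 3 or without the second deleted cortex, 1 without either of the other controls, 2 to 4 without any of deleted cortices 3 to 5, and 0 without the litter term. Over all genes, the number called higher also changed, from 47 with all libraries. It was 8 without the control of litter 3, 9 without the second deleted cortex, and 6 and 12 without the controls of litters 2 and 1. It was 36, 61 and 68 without deleted cortices 3, 4 and 5, and 0 without the litter term. The fitted values themselves kept their sign in all these fits, from 0.81 to 1.20 for *Onecut2* and from 0.68 to 0.92 for *Zfhx3* with each library left out.

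**Figure D4:**
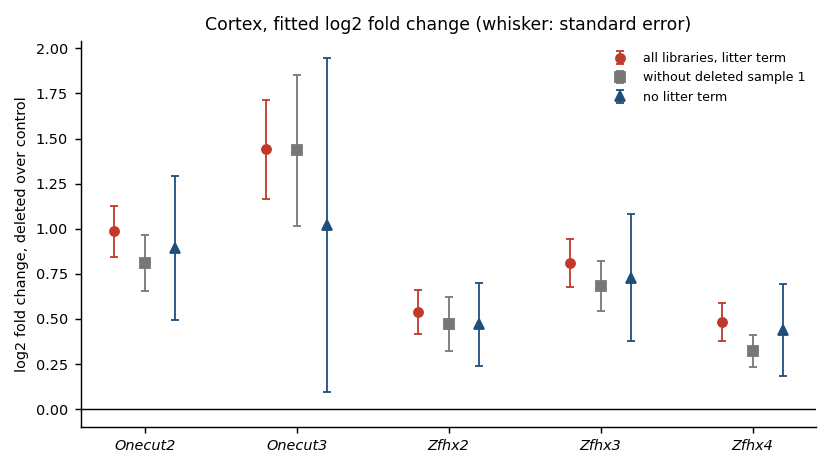
Fitted log2 fold change of deleted over control cortex with its standard error, for the 5 tested genes, with all 8 libraries, without the first deleted cortex, and with all libraries and no litter term. Values without the first deleted cortex run from 0.32 for *Zfhx4* to 1.43 for *Onecut3*, and the error of *Onecut3* is largest with no litter term.

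Which of these genes differ between control neurons and control cortex was tested in a separate fit of 3 against 3 libraries, in which neither group lacks *Phf6*. *Zfhx3*, *Zfhx4* and *Zfhx2* were lower in the control neurons, and *Onecut2* did not pass the test. *Zfhx3* fell by 3.02 on the log2 scale (standard error 0.83, edgeR FDR = 0.0382), with the highest neuron culture at 8.47 CPM and the lowest cortex at 25.6 CPM. *Zfhx4* fell by 1.08 (standard error 0.17, edgeR FDR = 0.000281). *Zfhx2* fell by 0.52 (standard error 0.17, edgeR FDR = 0.0327), and its groups overlapped.

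For *Onecut2* the log2 difference between control neurons and control cortex was -0.08 (standard error 0.23, edgeR FDR = 0.802), with both groups between 7.17 and 13.6 CPM. *Onecut3*, at 109, 19 and 12 reads in control cortex and 1, 4 and 6 in control neurons, passed the filter on low counts through the cortex alone, so it had to differ and its call as lower is given without support. Of the other 4 tested members, 3 were called lower in neurons, where 26.4% of the 14316 genes tested were called lower. With single libraries left out, *Zfhx4* was called in all 6 fits. The call of *Zfhx2* was lost without the control cortex of litter 3 or 2 or the control neurons of litter 4 or 5, and that of *Zfhx3* without any of the libraries except the control neurons of litter 4. Tissue, age, culture and the NesCre transgene differ together between these groups and cannot be told apart. Most marker lists moved between the same groups. Called lower in neurons were 6 of 7 progenitor and glial markers, 12 of 13 of the ganglionic eminences, all 7 tested of diencephalon and hypothalamus, 8 of 10 of Cajal-Retzius cells and hem, all 6 tested of endothelium and blood, 1 of 4 tested of choroid plexus and 7 of 11 dorsal cortical ones. Called higher were 5 of 6 neuron markers, 4 dorsal cortical ones and 1 progenitor and glial one, as were 3539 of all 14316 genes. Some of those called lower passed the filter on low counts through the cortex alone. Among them were *Gbx2*, *Olig3*, *Otp* and *Sim1* of the 7 of diencephalon and hypothalamus, and *Wnt3a* and *Cldn5* of other lists. In control neurons *Gbx2* was at a mean of 0.262 CPM, *Olig3* at 0.0769, *Otp* at 0.0797, *Sim1* at 0.105, *Wnt3a* at 0.198 and *Cldn5* at 0. The calls of such genes are given without support, as for *Onecut3*. The part of the lists in the differences was not tested.

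Compared per kilobase of gene (RPKM), the order of levels differed between the tissues. In control cortex it was *Zfhx2* at 11.3 ± 2.52 RPKM (SD, n = 3), *Zfhx4* at 4.11 ± 0.585, *Zfhx3* at 1.90 ± 0.503, *Onecut2* at 0.759 ± 0.242, *Onecut3* at 0.330 ± 0.345 and *Onecut1* at 0.0662 ± 0.0795. Among these neighbours, only *Onecut2* and *Onecut3*, and *Onecut3* and *Onecut1*, had overlapping libraries. In control neurons *Onecut2*, at 0.723 ± 0.112 RPKM (SD, n = 3), stood above *Zfhx3*, at 0.227 ± 0.250, with no overlap of the libraries, and behind *Zfhx2* at 7.90 ± 1.31 and *Zfhx4* at 1.95 ± 0.449. *Onecut3* and *Onecut1* were lowest, at 0.0344 ± 0.0245 and 0.0294 ± 0.0258 RPKM.

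**Figure D5:**
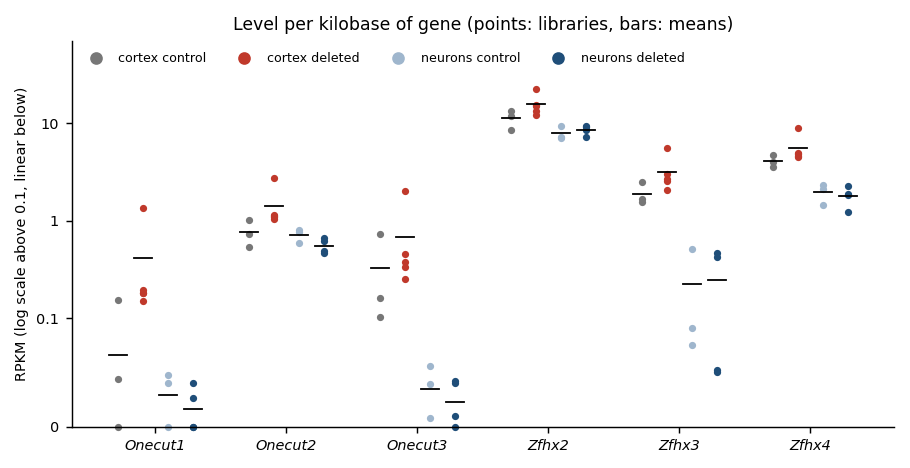
RPKM of the 6 genes by group, on an axis that is logarithmic above 0.1 and linear below, with points for libraries and bars for group means. *Zfhx3* lies above *Onecut2* in the cortex, at 1.90 against 0.759 RPKM in controls, and below it in control neurons, at 0.227 against 0.723 RPKM.

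The genes whose log2 CPM followed *Onecut2* most closely over the 8 cortex libraries, among 13468 genes at a mean of 1 CPM or more, were *Esrrg*, an orphan nuclear receptor, with a Pearson r of 0.98, *Nova1*, a neuronal splicing factor, with 0.98, *Zfhx4* with 0.97, *Efna5*, an ephrin ligand, with 0.97, and *Fndc3c1* with 0.96. Those closest to *Zfhx3* were *Traf3*, a signalling adaptor, with 0.99, *Peg3*, an imprinted zinc finger gene, with 0.99, *Pou2f2*, a POU homeodomain factor, with 0.99, *Emilin3*, a matrix protein, with 0.97, and *Mast4*, a kinase, with 0.97. Over the 7 libraries without the first deleted cortex, r was 0.90 to 0.96 for the former 5 and 0.91 to 0.98 for the latter 5. All points share the same libraries, genotypes and litters. *Onecut2* and *Zfhx3* were themselves at r = 0.94, and at 0.81 over the 7 libraries without the first deleted cortex, while *Onecut2* and *Zfhx4* were at 0.97 and 0.95.

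Other homeobox genes of the same 2 classes gave no call for genotype. Of the CUT class, *Cux1* and *Cux2*, which mark upper layer neurons, were at log2 fold changes of -0.05 (standard error 0.07) and -0.13 (standard error 0.08) in the cortex, and *Satb1*, a chromatin organiser, was at -0.08 (standard error 0.06). None of these 3 was called in either tissue by edgeR, DESeq2 or limma-trend. At an unadjusted p below 0.05 by edgeR, 0 of the 3 passed in the cortex and 1 in the neurons, *Cux1* at -0.13 (standard error 0.05). Of 11 other zinc finger class genes, among them *Zeb1* and *Zeb2*, which control epithelial-mesenchymal state and neuronal migration, 0 were called in the cortex by the same 3 tools, with a median log2 fold change of -0.05 beside a median of 0.00 over all genes, and 1, *Zeb1*, had an unadjusted p below 0.05 by edgeR, at 0.18 (standard error 0.07). Without the first deleted cortex, 0 of the 11 were called by edgeR and 0 had an unadjusted p below 0.05. In the neurons 0 of the 11 were called by the 3 tools, with a median of -0.02 beside 0.00 for all genes, and 3 had an unadjusted p below 0.05 by edgeR.

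Between control tissues some genes of these classes were called. Of all 14316 genes tested, 3539 were called higher in neurons and 3775 lower, so such calls are not particular to these classes. *Cux1* and *Cux2* were higher in neurons, at 0.33 (standard error 0.07, edgeR FDR = 0.00172) and 0.49 (standard error 0.09, edgeR FDR = 0.000496), and *Satb1* fell by 0.26 (standard error 0.09, edgeR FDR = 0.0204). Of the zinc finger class, *Zeb2* and *Zhx3* were called higher and *Tshz1*, *Tshz2*, *Zeb1* and *Zhx2* lower. *Tshz2*, a teashirt family gene, fell by 1.53 (standard error 0.13, edgeR FDR = 7.4e-07) and *Zeb1* by 0.99 (standard error 0.16, edgeR FDR = 0.000478).

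Marker lists were read beside the members in the cortex. Of the diencephalon and hypothalamus list, 1 of 9 tested genes was called, *Dbx1*, a progenitor factor, at 3.63 (standard error 0.54, edgeR FDR = 0.0135), and 0 without the first deleted cortex, where the median of the list was 0.47 in place of 1.27. *Dbx1* was at 0 to 0.907 CPM in control and 0.402 to 12.7 CPM in deleted cortices. It passed the filter on low counts through the deleted cortices, so its call is given without support. Of the Cajal-Retzius and cortical hem list, 2 of 10 were called higher, *Lhx5*, a LIM homeodomain factor, at 0.77 (standard error 0.14, edgeR FDR = 0.0368) and *Calb2*, which encodes calretinin, at 0.56 (standard error 0.11, edgeR FDR = 0.0392), and 1 without that library. The summed level of this list was 332 to 369 CPM in control and 424 to 480 CPM in deleted cortices, with no overlap with or without the first deleted cortex. Its most abundant gene, *Reln*, overlapped, at 228 to 258 CPM in control and 185 to 355 in deleted cortices, and was not called. The log2 fold changes in the list ran from -0.09 for *Wnt3a* to 0.77 for *Lhx5*, so the sum does not show a rise of every marker. Of 13 ganglionic eminence and interneuron genes, 1 was called, *Lhx8*, which specifies cholinergic neurons, at 0.77 (standard error 0.14, edgeR FDR = 0.0392), and 1 without that library. None of the 11 dorsal cortical, 6 choroid plexus, 6 neuron, 7 progenitor and glial or 6 tested endothelial and blood cell genes was called by edgeR, DESeq2 or limma-trend. By edgeR, 4 of these had an unadjusted p below 0.05, all lower, as were 702 of all 14746 genes. The summed progenitor and glial level was 1784 to 1842 CPM in control cortices, 1941 in the first deleted cortex and 1605 to 1632 in the other deleted cortices. The part of these lists in the members' values was not tested. The 10 midbrain and hindbrain genes were too low to test, with at most 2.44 CPM in sum, and *Hoxa2* and *Hoxb2* were at 0 in every library.

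In the neurons the same lists gave 5 calls, all higher in the deleted cultures. They were *Reln* and *Ndnf* of the Cajal-Retzius list, at 0.81 (standard error 0.06, edgeR FDR = 1.4e-05) and 1.24 (standard error 0.16, edgeR FDR = 0.00383), the choroid plexus gene *Ttr*, *Lhx9* of the diencephalon list and the interneuron gene *Sst*. The summed Cajal-Retzius level was 140 to 184 CPM in control and 225 to 406 CPM in deleted neurons, with no overlap. *Onecut2*, *Zfhx3* and *Zfhx4* were thus lower within litters in cultures in which this list was higher, and the part of the list in their values was not tested.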

How the data were processed

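RNA was sequenced from 8 E15.5 cortices and 7 cultures of E16.5 cortical neurons of *Phf6* deleted and control male foetuses. The authors aligned the reads to the mm10 build with Rsubread, assigned them to Entrez genes with featureCounts (inbuilt RefSeq annotation), and deposited raw counts without normalization. The 15 files of single samples equalled their columns of the series table. Of 27179 entries, 1029 without a gene identifier (0.349% to 0.605% of counts) were left out. Of the other 26150, 875 not matched to RefSeq, 835 pseudogenes, 1273 predicted genes, 35 genes for ribosomal RNA and 4 off the known chromosomes were left out, which left 23128.

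Each tissue was fitted on its own with edgeR 4.0.16 (R 4.3.3), using filterByExpr, TMM scaling and robust quasi-likelihood F tests over all genes, with litter, as the labels give it, as a blocking factor and p-values adjusted by Benjamini-Hochberg (FDR). Control neurons and control cortex were compared without litter, since no litter held both. Litter 7 has no control and does not enter a difference within litters. Alternatives were DESeq2 1.42.0, limma-trend (limma 3.58.1), library totals, other filters, no litter term and each library left out. RPKM is CPM over gene length in kilobases and gives the same differences within a gene. On simulated counts with 200 changed genes, the fits were tested for recovery of these genes.

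The members and the gene lists were chosen with earlier results of these data known. The genes named were the members, *Phf6*, called genes of the other lists with some of their most abundant genes, and the 5 genes most like *Onecut2* and *Zfhx3*. *Tshz2* and the list genes with only an unadjusted p below 0.05 were picked after their values were seen. Litters pair the samples. Counts of non-overlapping members and marker calls without the first deleted cortex were chosen after seeing the data. P-values measure the spread between foetuses or cultures. Results for some single genes of the lists are not reported here.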

Additional observations from a re-analysis of the deposited data

Results flagged for a closer look

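Over the 6 genes and 11 lists in both tissues, 34 groups of 4 or 5 deleted libraries were examined. In 10, the highest or lowest library was farther from the rest than Dixon's 95% critical value. Chance passes this limit in about 1 in 20 single groups. The groups share the same libraries and are not independent, so the number of flags is not read against chance. Of the 10 flags, 9 were the first deleted cortex. It was high for *Onecut1* (2.48 CPM, the others at most 0.359), *Onecut2* (36.5 CPM, the others at most 15.2), *Onecut3* (9.41 CPM, the others at most 2.12), *Zfhx3* (90.5 CPM, the others at most 49.8) and *Zfhx4* (124.9 CPM, the others at most 68.3). *Zfhx2*, where it was also the highest, was within the limit. The same library was high in the diencephalon and hypothalamus markers (494.5 CPM in sum, the others at most 62.5), the midbrain and hindbrain markers (2.44 CPM, the others at most 0.681) and the progenitor and glial markers (1941 CPM, the others at most 1632), and low in the dorsal cortical markers (2024 CPM, the others at least 3075). Deleted cortex 4 was high in the choroid plexus markers (334.7 CPM, the others at most 94.8), and its *Onecut2* level was 14.7 CPM.

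In 3 of the genes, every deleted cortex was above the control of its litter and every deleted culture with a control was below it. The fitted log2 fold change was higher in the cortex than in the neurons by 1.28 for *Onecut2*, by 1.213 for *Zfhx3* and by 0.62 for *Zfhx4*. The difference was not tested, since *Onecut2* and *Zfhx3* were chosen for it.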

How the results depend on the processing

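The number of members called higher in the deleted cortex, 3 as reported, was 5 with DESeq2, 0 without litter 3 and 0 to 4 with single libraries left out. Over all genes, 47 were called higher as reported, 156 with DESeq2, 8 without litter 3 and 6 to 68 with single libraries left out. With no replicate block, that is without the litter pairing, 0 members and 0 of all genes were called higher. The log2 fold changes were then 0.90 for *Onecut2* and 0.73 for *Zfhx3*. In the neurons 0 members were called as reported, 0 with no replicate block and 0 to 1 with single libraries left out, the 1 being *Zfhx2* without the control or the deleted culture of litter 6. In those fits 352 and 257 of all genes were called higher and 171 and 127 lower, against 27 higher and 11 lower as reported. Of the other homeobox genes, 0 were called in the neurons as reported, 1 with no filter on low counts and 0 to 1 with single libraries left out. With no filter, 186 of 18059 genes were called higher and 111 lower. The 1 with a library left out came without the control or the deleted culture of litter 6. Between control tissues, 4 members were called, *Onecut3* among them only through its cortex reads, 3 with at least 10 counts in every library, 2 with no filter on low counts and 1 to 3 with single libraries left out. Over all genes, 3775 of 14316 were called lower as reported, 3413 of 13040 with at least 10 counts and 3868 of 18225 with no filter. With single libraries left out, 3220 to 3734 genes were called lower. The log2 difference of *Onecut2* between these groups ran from -0.27 to 0.20 with single libraries left out, turning to 0.20 without the control cortex of litter 3 and to 0.07 without the control neurons of litter 5, and was -1.35 between deleted groups, where the high deleted cortices used to choose it enter. The causes were not tested. Over all values, 255 of 290 alternatives stayed within set limits. For a fold change by genotype the limit was the SD of log2 CPM over the deleted libraries, the first deleted cortex included. Loss of a call was not counted there, and *Zfhx3* in the neurons at 0.13 with no litter term lay inside it. Between control tissues the limit was direction and side of the threshold, and for counts a set ratio. The count of members called higher in the deleted cortex moved in 8 alternatives and stayed in 8. In the neurons *Onecut1* and *Onecut3* are limited by depth.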
